A study of Anguilla anguilla with 12 samples.

Results

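The hairpins described here carry the names of the epithelial miR-200 group, of miR-203 and miR-205, and of the miR-183 cluster in the liver of the European eel (Anguilla anguilla). They were chosen by name: a precursor entered if the zebrafish miRNA listed for its seed was called miR-200, miR-141, miR-429, miR-203, miR-205, miR-96, miR-182 or miR-183. The seed is bases 2 to 8 of a microRNA (miRNA), counted from its 5′ end, and it guides the pairing with target messengers. The rule found 18 of the 820 precursors that the authors listed with miRDeep2, a program that finds hairpins whose reads look like the products of Dicer. Livers were taken from 6 yellow eels of the Gironde Estuary, which the study describes as polluted, and from 6 of Arcachon Bay, which it describes as pristine; yellow eels are the growing stage before sexual maturation. The list gives read counts with no division by animal, and its headers name no sample. The counts are treated here as pooled over the libraries, with 1 value per hairpin and no spread between eels. No comparison of the sites could be made, and no test was run.

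In mammals, the miR-200 miRNAs hold epithelial cells in their state by repressing the ZEB transcription factors, and in the liver they are known mainly from the bile ducts. They fall into seeds that differ by a single base, that of miR-200a and miR-141 and that of miR-200b, miR-200c and miR-429. In vertebrates miR-200b, miR-200a and miR-429 lie one after the other in the genome and are transcribed together. miR-203 and miR-205 are known from the skin and from other layered epithelia. miR-183, miR-96 and miR-182, which also lie next to each other and are transcribed together, are known from sensory cells such as hair cells and photoreceptors.

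The 18 precursors gave 12 distinct mature sequences with 7 seeds. The most abundant sequence of each name is shown here, with the seed in capitals, because the names rest on these bases alone.
miR-200a-3p: uAACACUGucugguaacgauguu
miR-429a: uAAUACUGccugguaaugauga
miR-203a-3p: gUGAAAUGuuuaggaccacuug
miR-205-5p: uCCUUCAUuccaccggagucugu
miR-183-5p: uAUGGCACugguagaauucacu
miR-182-5p: uUUGGCAAugguagaacucaca
miR-96-5p: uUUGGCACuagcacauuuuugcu
Positions are counted from 1 at the 5′ end of the mature sequence. The seeds of miR-200a-3p and miR-429a differed by C4U. Those of miR-96-5p and miR-182-5p differed by C8A, and those of miR-96-5p and miR-183-5p by U2A. Over the whole mature sequence, miR-182-5p and miR-183-5p were the closest of these 3, with 4 substitutions over 22 bases, against 9 between miR-96-5p and miR-183-5p and 10 between miR-96-5p and miR-182-5p. A name stands for a seed, so miR-429a covers sequences that could be miR-200b or miR-200c, and miR-200a-3p covers miR-141. Reads, shares and ranks given under miR-429a are those of sequences with this seed. They do not show that miR-429 itself was abundant. No entry was named miR-141, miR-200b or miR-200c, and 0 entries with another name or none had a seed of the 7.

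The miR-200 names held nearly all of the reads. Of the 104 mature sequences with several entries in the list, 58 had equal counts at all of them, so copies may share reads. Each mature sequence was therefore counted once, at its entry with the most reads. The 12 sequences then held 235346 mature reads, or 0.0863% of the 272589277 in the list (exact binomial interval 0.0860% to 0.0867%, which covers counting error only). Of these reads, 54.2% were miR-200a-3p and 39.6% were miR-429a, followed by 5.17% for miR-203a-3p. The names miR-183-5p, miR-182-5p and miR-96-5p together made up 1.05%, and miR-205-5p made up 0.0200%. In a whole liver, fewer cells of a type and less of the RNA per cell cannot be told apart.

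miR-200a-3p, with 127481 mature reads, was the 44th most abundant of 676 distinct sequences, between miR-456 with 150989 reads and miR-216b with 123605. miR-429a, with 92317 reads, was 50th, between a miR-7b sequence with 94253 and a miR-125a sequence with 87112. miR-203a-3p had 12168 reads and was 87th, between miR-24 with 12499 and miR-218b with 12096. The leading sequences of the miR-183 cluster stood lower, miR-183-5p with 1303 reads at rank 141, miR-182-5p with 823 at rank 155 and miR-96-5p with 194 at rank 248. miR-205-5p had 47 reads and was 382nd. miR-200a-3p thus had 97.8 times the reads of miR-183-5p and 1.38 times those of miR-429a.

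Families known from other cells give the scale. miR-122, the miRNA of hepatocytes, had 176573973 reads in its main sequence, 1385 times those of miR-200a-3p. miR-192 had 4141267 reads and miR-194 had 459589, the 2 sequences of endothelial miR-126b-3p had 2080388, and the 2 of red cell miR-451 had 424400. Among the pancreas-linked families, miR-216 sequences had 128754 reads, close to miR-200a-3p, while miR-217 had 46385 and miR-375 had 7863. Beside the miR-183 cluster, the lists of sensory and neuroendocrine cells held miR-7 with 363935 reads and the same miR-375. Of the muscle families, miR-1 had 16291 reads over 2 sequences, more than miR-203a-3p. No entry was named for miR-133 or miR-206 of muscle or for miR-144 of red blood cells, and a name can be hidden under another with the same seed. Which cells the miR-200 and miR-183 reads came from was not tested.

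**Figure D1:**
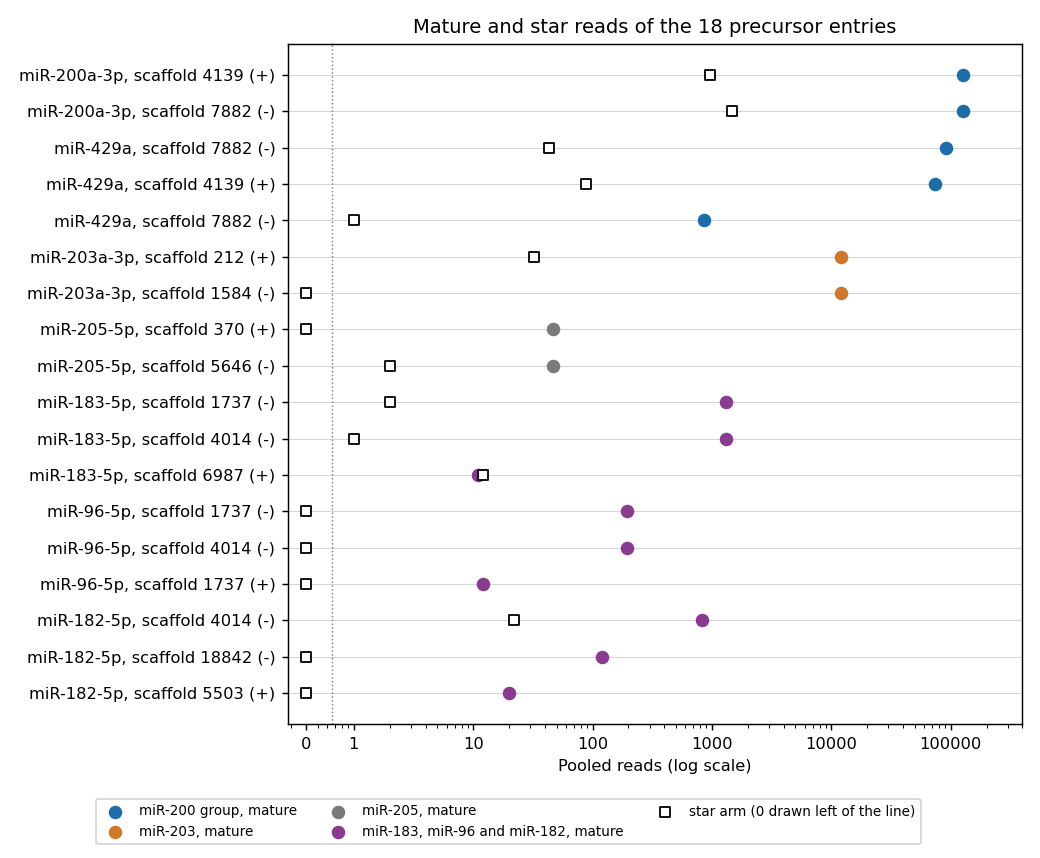
Pooled mature reads (filled circles) and star reads (open squares) of each of the 18 precursor entries, on a log axis on which a count of 0 is drawn left of the dotted line. Mature reads run from 11 to 127481, the miR-200 names lie highest apart from 1 miR-429a entry with 851 reads, and 7 entries have 0 star reads.

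The miR-200 group lay in 2 clusters, each with a miR-429a hairpin upstream of a miR-200a-3p hairpin. Precursors counted as clustered when they lay on 1 strand of a scaffold with neighbouring starts within 10 kb. The hairpins are shown in the direction of transcription, with the mature arm in capitals, because their order and the bases outside the mature arm tell the copies apart. Coordinates are 1-based positions on numbered scaffolds of the eel assembly used in the list, whose build name the sources used here do not give, and no annotation of it was used.
miR-429a, scaffold 7882 (6425 to 6483, minus strand): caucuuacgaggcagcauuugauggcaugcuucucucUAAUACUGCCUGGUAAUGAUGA
miR-200a-3p, scaffold 7882 (6068 to 6128, minus strand): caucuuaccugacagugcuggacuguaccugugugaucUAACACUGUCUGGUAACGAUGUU
miR-429a, scaffold 7882 (3388 to 3446, minus strand): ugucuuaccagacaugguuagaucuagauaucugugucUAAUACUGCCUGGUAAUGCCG
miR-429a, scaffold 4139 (60029 to 60087, plus strand): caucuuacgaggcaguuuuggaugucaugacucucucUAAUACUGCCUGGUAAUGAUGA
miR-200a-3p, scaffold 4139 (60356 to 60417, plus strand): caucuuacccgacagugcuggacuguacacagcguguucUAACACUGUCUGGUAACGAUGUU
On scaffold 7882 the 5′ ends of the first and second hairpin were 355 nt apart, and the third followed 2682 nt further on, in a cluster of 3096 nt. On scaffold 4139 the 5′ ends of the hairpins were 327 nt apart, and no further hairpin was listed there. The first hairpins of the clusters differed by 6 edits over 59 nt, and the miR-200a-3p hairpins by 5 edits over 61 and 62 nt. In each, a hairpin with the seed of miR-200b and miR-429 came before one with the seed of miR-200a. The last hairpin of scaffold 7882 again had the first seed, which is the order of these seeds in other vertebrates. By place in that order, the first hairpin of scaffold 7882 stands where miR-200b does, and the last where miR-429 does. Identity beyond the seed was not tested.

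The third hairpin of scaffold 7882 carried the same seed as the first but another 3′ end. Its mature sequence uAAUACUGccugguaaugccg differed from that of the first by A19C and U20C over 21 compared bases. It had 851 mature reads against 92317 for the upstream miR-429a sequence, a ratio of 108 between sequences. The upstream sequence was also listed on scaffold 4139, with 74152 reads, so its reads may come from both scaffolds. How far the reads of these neighbouring hairpins differed is therefore not known.

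The copies on the 2 scaffolds shared their mature sequences, so the mature sequence alone does not assign reads to either. miR-200a-3p was counted with 127480 mature reads on scaffold 7882 and 127481 on scaffold 4139. For miR-429a the counts of the same mature sequence were 92317 on scaffold 7882 and 74152 on scaffold 4139, a difference of 18165 reads or 1.24-fold. Among the 104 mature sequences with several entries in the list, 58 had equal counts at all of them, and for 3, miR-429a included, the ratio of highest to lowest was at least this high. The listed sequence is a consensus of the reads, so equal sequences do not require equal reads. For miR-429a, some reads were thus counted on scaffold 7882 and not on scaffold 4139, and the list does not show which.

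The star arms, which come from the other strand of the cut hairpin and differ between the copies, had reads listed at each. For miR-200a-3p the star arms differed by U10C (scaffold 7882 to scaffold 4139, counted from the 5′ end of the star arm). They held 1466 reads on scaffold 7882 and 958 on scaffold 4139, so 60.5% were listed at scaffold 7882 (exact binomial interval 58.5% to 62.4%). For miR-429a the star arms differed by U16C, U17A and G20U (scaffold 4139 to scaffold 7882). They held 88 reads on scaffold 4139 and 43 on scaffold 7882, so 67.2% were listed at scaffold 4139 (interval 58.4% to 75.1%). Scaffold 7882 thus had more star reads for miR-200a-3p and fewer for miR-429a. The sources used here do not say how many mismatches the mapping allowed, and reads of 1 star arm may have been counted at the other. The intervals do not cover this.

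**Figure D2:**
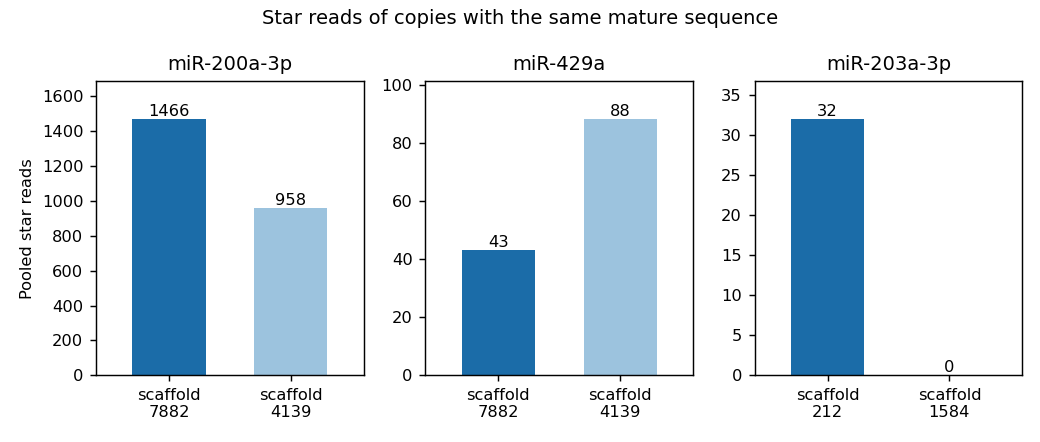
Pooled star reads (vertical axis, starting at 0, scaled separately for each name) of the 2 copies that share a mature sequence, for miR-200a-3p, miR-429a and miR-203a-3p. The copy on scaffold 7882 is higher for miR-200a-3p (1466 against 958 reads) and lower for miR-429a (43 against 88), and the miR-203a-3p star reads are all at scaffold 212 (32 against 0).

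miR-203a-3p, which in mouse skin promotes the differentiation of keratinocytes, was listed at 2 hairpins with equal mature reads and unequal star reads. Both entries had 12168 mature reads. The hairpin on scaffold 212 (417615 to 417674, plus strand) had 32 star reads and 1 loop read. The hairpin on scaffold 1584 (65190 to 65248, minus strand) had 0 star reads. The star share of this entry was thus 0% of mature plus star reads (exact binomial interval 0% to 0.0303%). Its mature reads were also listed on scaffold 212, so this is a share per listed entry, not per copy. The hairpins, which are shown because 3 edits separate them, are these.
miR-203a-3p, scaffold 212: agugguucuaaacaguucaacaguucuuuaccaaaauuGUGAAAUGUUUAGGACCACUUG
miR-203a-3p, scaffold 1584: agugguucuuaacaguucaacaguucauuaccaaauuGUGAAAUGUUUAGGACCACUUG
Within their first 22 bases, the star arms differed by A10U (scaffold 212 to scaffold 1584), counted from the 5′ end of the star arm. Within 10 kb upstream of the scaffold 212 hairpin, at 3654 nt, lay an unmatched precursor with 85 mature reads, 6 star reads and a score of 0.1. No other member lay near either miR-203a-3p hairpin.

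miR-205-5p, a miRNA of basal epithelial cells in mammals, had the fewest reads of the 7 names. It had 47 mature reads at each of 2 hairpins. That on scaffold 5646 (16307 to 16365, minus strand) had 2 star reads, and that on scaffold 370 (73050 to 73109, plus strand) had 0. The hairpins differed by 5 edits over 59 and 60 nt, and neither lay within 10 kb of another precursor.

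The miR-183 cluster was complete on 1 scaffold and listed in part on another. On scaffold 4014, in the direction of transcription, the order was miR-183-5p, miR-96-5p and miR-182-5p, which is the order known from other vertebrates. The hairpins are shown with the mature arm in capitals.
miR-183-5p, scaffold 4014 (11352 to 11413, minus strand): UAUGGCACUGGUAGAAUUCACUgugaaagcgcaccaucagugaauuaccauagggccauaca
miR-96-5p, scaffold 4014 (11017 to 11080, minus strand): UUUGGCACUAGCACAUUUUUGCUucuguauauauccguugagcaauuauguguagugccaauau
miR-182-5p, scaffold 4014 (9449 to 9512, minus strand): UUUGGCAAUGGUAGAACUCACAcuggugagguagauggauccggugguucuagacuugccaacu
miR-183-5p, scaffold 1737 (52483 to 52542, minus strand): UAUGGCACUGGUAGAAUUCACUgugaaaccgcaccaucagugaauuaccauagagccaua
miR-96-5p, scaffold 1737 (52175 to 52238, minus strand): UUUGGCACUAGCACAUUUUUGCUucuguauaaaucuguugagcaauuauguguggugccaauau
On scaffold 4014 the 5′ ends of miR-183-5p and miR-96-5p were 333 nt apart and miR-182-5p lay 1568 nt further on, in a cluster of 1965 nt. On scaffold 1737 the 5′ ends of miR-183-5p and miR-96-5p were 304 nt apart, and no miR-182-5p hairpin was listed on that scaffold. The miR-183-5p hairpins differed by 4 edits and the miR-96-5p hairpins by 3.

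The 3 miRNAs of the cluster had unequal reads. miR-183-5p had 1303 mature reads at each copy, 1.58 times the 823 of miR-182-5p and 6.72 times the 194 of miR-96-5p. These are ratios between sequences. Reads of miR-183-5p and miR-96-5p may come from scaffolds 1737 and 4014, while that miR-182-5p sequence was listed on scaffold 4014 alone. Whether the miR-183-5p hairpin of scaffold 4014 gave more reads than its miR-182-5p hairpin is therefore not known. Again the copies cannot be separated, since the mature counts were equal for miR-183-5p and for miR-96-5p. The star arms added little: miR-183-5p had 2 star reads on scaffold 1737 and 1 on scaffold 4014, and miR-96-5p had 0 on both. miR-182-5p had 22 star reads, or 2.60% of its mature plus star reads (exact binomial interval 1.64% to 3.92%). Counted by sequence, miR-96-5p, the middle one in the cluster, had the fewest reads of the 3.

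**Figure D3:**
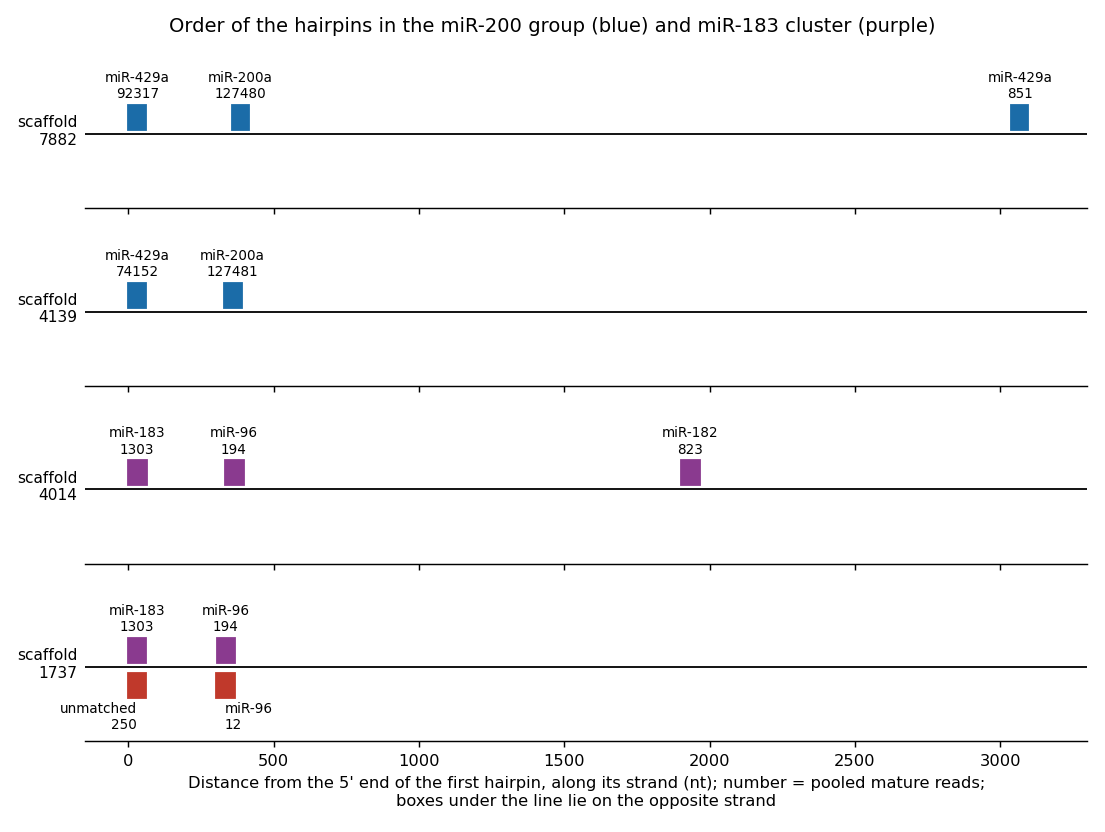
Hairpins of the miR-200 group (blue) and the miR-183 cluster (purple) along 4 scaffolds, as distance in nt from the 5′ end of the first hairpin along its strand, with the pooled mature reads above each. The order miR-429a then miR-200a is seen on both scaffolds 7882 and 4139, and the order miR-183 then miR-96 on both 4014 and 1737. Names stand for seeds, so a hairpin named miR-429a could be miR-200b or miR-200c. The 2 hairpins under the line on scaffold 1737 lie on the opposite strand, with 250 and 12 mature reads.

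On scaffold 1737, each hairpin of the cluster also had a listed hairpin on the opposite strand. Opposite miR-183-5p lay an unmatched precursor (52483 to 52543, plus strand) with 250 mature reads, 1 star read and a score of 126.8. Opposite miR-96-5p lay a precursor (52177 to 52240, plus strand) with 12 mature reads and 0 star reads, which took the name miR-96-5p because its seed is the same. The sequences of these antisense hairpins show how close they are to the sense miRNAs, since a hairpin read from the other strand is again a hairpin.
Opposite miR-183-5p: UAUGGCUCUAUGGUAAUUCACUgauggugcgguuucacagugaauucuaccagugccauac
Opposite miR-96-5p: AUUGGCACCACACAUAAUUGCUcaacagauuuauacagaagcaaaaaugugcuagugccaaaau
The overlap with the sense hairpin was 60 nt for miR-183-5p and 62 nt for miR-96-5p. In each, 20 of the 22 bases of the antisense mature arm lay across from the sense star arm. The region of the miR-183-5p star arm thus had 250 reads on the antisense strand and 2 on the sense strand.

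The antisense mature sequences were similar to, and distinct from, the sense ones. That opposite miR-183-5p differed from miR-183-5p by 5 edits, and by A7U within the seed. It made up 16.1% of the mature reads listed on the 2 strands of scaffold 1737. That opposite miR-96-5p also differed from its sense partner by 5 edits and made up 5.83%. The same sense reads were also listed on scaffold 4014 and may come from there. These are therefore shares of listed reads, and the shares at scaffold 1737 itself are not known. Each antisense mature sequence differed by 1 edit from the antisense of the copy on scaffold 4014, where no opposite-strand precursor was listed. In the whole list, 51 of 820 entries (6.22%) overlapped an entry on the other strand, in 26 pairs on 23 of 648 scaffolds. Among the members, 3 of 18 did so, all on scaffold 1737.

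A further 3 entries carried a name of the miR-183 cluster through the seed alone. They are shown with the seed in capitals, to be read against miR-183-5p and miR-182-5p above.
miR-183-5p, scaffold 6987 (342 to 402, plus strand): aAUGGCACuggcucagcacca
miR-182-5p, scaffold 18842 (10296 to 10358, minus strand): uUUGGCAAagaacagaaggaca
miR-182-5p, scaffold 5503 (29286 to 29344, plus strand): uUUGGCAAgggcuguauacugu
Each had 9 substitutions relative to the leading sequence of its name, over 21 bases for the first and 22 for the others. The longest run shared with that sequence was 10 bases for the first and 8 for the others. They had 11, 119 and 20 mature reads, in the order shown, and none lay near another member. The entry on scaffold 6987 was the only one of the 18 whose star reads, 12, exceeded its mature reads, and its mature arm was on the 3p side, against the 5p side in the other miR-183-5p entries. These entries are members by the rule and share little with miR-183-5p or miR-182-5p beyond the seed.

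The arm listed as mature followed the seed name, with 1 exception. The 3p arm gave the mature sequence in all 5 miR-200a-3p and miR-429a entries and both miR-203a-3p entries. The 5p arm gave it in both miR-205-5p entries and in 8 of the 9 entries with a miR-183 cluster name, all but the one on scaffold 6987. In all, 10 of 18 entries were on the 5p arm and 8 on the 3p arm. The star arm held between 0 and 2.60% of mature plus star reads in 16 entries. It held 4.08% in the miR-205-5p entry with 49 reads and 52.2% in the entry on scaffold 6987 with 23 reads. The median star share was 0.0970% over the members and 0.441% over the 774 other entries with at least 10 mature plus star reads. Both medians are over listed entries, in which copies of a sequence count separately, and 7 of the 18 members had 0 star reads. Star shares were 1.14% and 0.746% for miR-200a-3p on scaffolds 7882 and 4139, and 0.0466% and 0.119% for the abundant miR-429a sequence on the same scaffolds. Since the mature sequence alone does not assign reads to a copy, these are shares per listed entry, not per copy. With both entries of a sequence summed, the star share was 0.942% for miR-200a-3p and 0.0786% for the miR-429a sequence.

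The hairpins themselves were alike in size. Precursors were 59 to 64 nt long and mature sequences 21 to 23 nt, and 9 of the 12 distinct mature sequences began with U, the exceptions being miR-203a-3p with G and the scaffold 6987 and antisense miR-96-5p sequences with A. The predicted folding energy had a median of -22.35 kcal/mol over the 18 members and -24.2 kcal/mol over the 802 other entries. It ran from -29.8 kcal/mol for miR-182-5p on scaffold 5503 to -18.0 kcal/mol for the third hairpin of scaffold 7882. Between 15 and 20 bases of the mature arm were paired in these folds.

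Most of the members lay in genomic clusters. Of the 18, 12 (66.7%) lay within 10 kb of another precursor on the strand, and 10 (55.6%) lay in a cluster with another member. The 12 include the miR-203a-3p hairpin of scaffold 212 and the antisense miR-96-5p hairpin of scaffold 1737. Each of these was clustered only with an unmatched precursor. Of the 272 other seed-matched precursors, 91 (33.5%) lay in a cluster. No test of this difference was made, because the members were picked by names that include known clusters.

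The miRDeep2 score split the members into 2 levels that did not follow reads alone. It was at least 10 in 8 entries and between 3 and 3.9 in the other 10. In the 7 members that scored above 100, it was 0.510 to 0.513 per read, within the range of 0.492 to 0.526 of the 222 other entries at this level. The miR-429a copies show the split most clearly, with a score of 37852.5 on scaffold 4139 and 3.2 on scaffold 7882, where the mature count was higher (92317 against 74152) and the star count lower (43 against 88). The miR-203a-3p copies scored 6223.4 on scaffold 212 and 3.6 on scaffold 1584. Low scores were also given to all miR-96-5p and miR-205-5p entries. Across the list, 469 of 820 entries scored under 10, and 72 entries with over 1000 reads scored under 4.

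**Figure D4:**
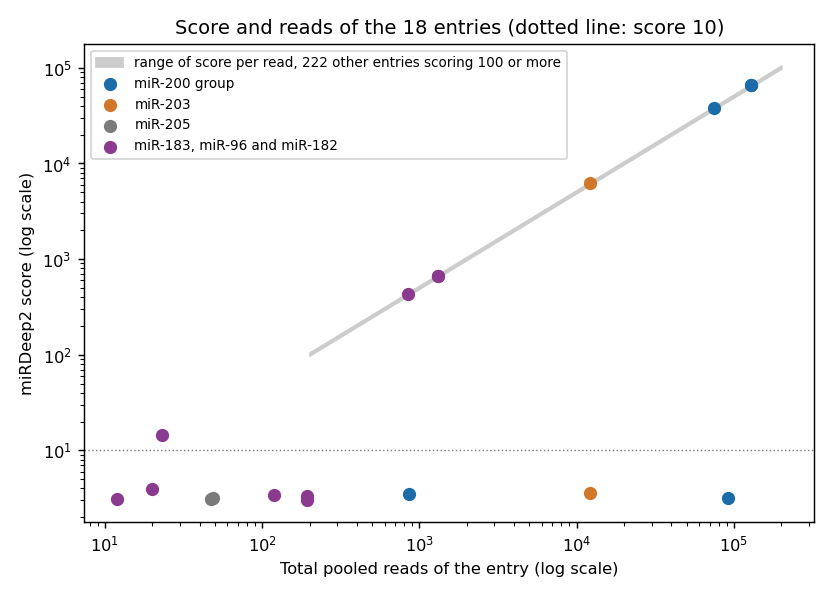
miRDeep2 score against total pooled reads of each of the 18 entries, both on log axes, with the range of score per read of the 222 other entries that scored 100 or more in grey and a score of 10 as a dotted line. Apart from the entry on scaffold 6987, with a score of 14.4, members lie on the grey band or between 3 and 3.9, and the low level includes the miR-429a entry with 92360 total reads.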

How the data were processed

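Per the labels' protocols, RNA of 12 eel livers was prepared with a microRNA kit and turned into small RNA libraries. Base calls were converted with bcl2fastq 2.17.1.14, per the submitters' processing notes. The sources used here do not give the aligner, the trimming or the miRDeep2 version. Per the file headers, the values are miRDeep2 predictions: the authors deposited whole-number counts of mature, star, loop and total reads per precursor, not normalized, and a score. No column names an eel, so the depth of single libraries is unknown and the planned count test between sites could not be run. Every value is treated as 1 pooled value.

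Listed starts count from 0, so 1 was added. Identical mature sequences were counted once, at their highest count. Overlapping predictions on 1 strand were merged before clusters were formed. Intervals are exact (Clopper-Pearson, 95%) and cover counting error only, since no molecular identifier is recorded. Differences between sequences are edit distances or substitutions. Folds came from RNAfold 2.7.2 at its default 37 °C. Alternatives were scores of at least 4 and 10, star reads, other ways to count copies, 1000 reads, and cluster distances of 3 and 50 kb. Every member is named; other miRNAs are named as cluster neighbours, rank neighbours or families of other cell types. Members and lists were chosen with earlier results of these data known. Cluster and arm functions were tested on simulated data. Python 3.11.15, pandas 2.3.3, numpy 2.4.6, scipy 1.17.1 and matplotlib 3.10.9 were used.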

Additional observations from a re-analysis of the deposited data

How the results depend on the processing

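The 18 entries became 8 at scores of at least 4 or at least 10, and 11 with at least 1 star read. The 12 distinct mature sequences became 7 with 1 sequence per seed. The share of mature reads was 0.116% with reads summed over entries and 0.245% with miR-122 left out of the denominator, against 0.0863% as reported. The 10 entries on the 5p arm became 2 of 8 with at least 1000 reads. The 6 clusters became 2 at a score of at least 10, and 4 held at least 2 members. Both of these settings were chosen after seeing the data. Other distances and strand rules gave 5 or 6. Among values of single names, 14 alternatives moved the value beyond its counting interval and 7 settings left it within its interval or its count unchanged. A search for shifted seeds added 0 entries. No paired analysis was possible because the columns carry no replicate.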
